A study of Mus musculus with 6 samples.

Results

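The inflammasome and the interleukin-1 family were examined through 10 genes in the RPE/choroid of aged and young mice. RPE/choroid is the pigmented epithelium that underlies the photoreceptors, with the vascular bed that supplies it. The genes, taken by symbol from a list, were Nlrp3, Aim2, Pycard, Casp1, Casp4, Gsdmd, Il1a, Il1b, Il18 and Il1rn, which are 10 of the 33924 genes in the authors' deposited comparison. All 10 passed the filter on low values and were tested. Of these, 9 were higher in aged mice and 0 were lower, against 11.3% of all tested genes higher, 9.92% lower and 21.2% changed in either direction. The exception was Il18, whose log2 fold change was -0.05 (SE 0.21).

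The mice were C57BL/6J without any engineered allele or treatment, with 3 libraries in the young group and 3 in the aged group. The labels give young mice as 1 to 2 months old and aged mice as 20 to 24 months in the titles but 22 to 24 months in the time field, and the methods of the study state a higher age range for the young group. All are labelled male, whereas the methods name both sexes. Each library came from a pair of eyes, from tissue scraped off the eyecup, and total RNA was read after removal of ribosomal RNA with no selection for poly(A) tails. Rpe65, the visual cycle isomerase that defines RPE, had a mean normalized count of 43745, and its log2 fold change was 0.10 (SE 0.16, adjusted p = 0.724).

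Inflammasomes are protein assemblies in the cytosol that form when a sensor detects a sign of infection or damage. The sensor recruits the adaptor ASC, made by Pycard, which gathers caspase-1 into an active protease. Caspase-1 cleaves the precursors of IL-1β and IL-18 into secreted cytokines and cleaves gasdermin D, whose released fragment makes pores in the plasma membrane. IL-1α is active without this cleavage, and IL-1 receptor antagonist occupies the same receptor as IL-1α and IL-1β without signalling. In the RPE, this pathway has been studied in connection with age-related macular degeneration. The values here are RNA levels, and neither cleavage nor assembly was measured.

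The deposited values hold no level per library. For each gene they give a mean normalized count over all 6 libraries, a log2 fold change with its standard error, and a DESeq2 Wald p adjusted over all 18636 genes tested. A gene was taken to differ at an adjusted p under 0.05, and a positive fold change is a rise in aged mice. The sign of the fold changes is not stated in the file and was taken from the study's counts of higher and lower genes, so all directions depend on it. Group means given below are those implied by the mean and the fold change with 3 libraries in each group. They carry no SD, and whether the 3 aged and 3 young values of a gene overlapped could not be seen. Whether the authors' model reduced (shrank) uncertain fold changes is not stated. Standard errors were small at the lowest counts, such as 0.19 in the neutrophil marker Ly6g at a mean of 0.296. If fold changes were shrunken, the implied means lie closer together than the group means. In a bulk tissue, a change in the number of cells of a type and a change in RNA per cell cannot be told apart.

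The bases in front of the transcription start were read from RefSeq on GRCm38.p6 for 9 of the 10 genes, in 13 windows of 250 bases, since some genes have several starts. Gsdmd had no entry. The windows of the 3 cytokine genes and of Casp1, the gene with the largest fold change of the 10, are printed 5′ to 3′ on the gene's strand so that the gene without a call, Il18, can be read beside 3 genes that rose. Capitals mark every match, on either strand, to the motifs searched.
Il1a, chr2:129309973-129310222, minus strand: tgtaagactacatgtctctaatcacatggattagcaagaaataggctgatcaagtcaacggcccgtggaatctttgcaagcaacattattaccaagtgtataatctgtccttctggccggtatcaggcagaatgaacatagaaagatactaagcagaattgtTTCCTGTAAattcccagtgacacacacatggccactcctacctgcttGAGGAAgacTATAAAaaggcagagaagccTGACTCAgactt
Il1b, chr2:129371140-129371389, minus strand: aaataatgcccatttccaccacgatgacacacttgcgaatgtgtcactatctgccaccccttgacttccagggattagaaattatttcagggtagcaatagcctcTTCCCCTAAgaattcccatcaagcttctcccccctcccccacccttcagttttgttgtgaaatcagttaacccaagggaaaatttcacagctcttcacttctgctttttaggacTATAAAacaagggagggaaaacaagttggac
Il18, chr9:50554450-50554699, plus strand: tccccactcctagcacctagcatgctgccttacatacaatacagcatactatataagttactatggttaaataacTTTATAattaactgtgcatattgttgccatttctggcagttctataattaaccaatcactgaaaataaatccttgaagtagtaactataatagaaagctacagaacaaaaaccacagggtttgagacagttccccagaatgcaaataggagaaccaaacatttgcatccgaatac
Casp1, chr9:5298267-5298516, plus strand: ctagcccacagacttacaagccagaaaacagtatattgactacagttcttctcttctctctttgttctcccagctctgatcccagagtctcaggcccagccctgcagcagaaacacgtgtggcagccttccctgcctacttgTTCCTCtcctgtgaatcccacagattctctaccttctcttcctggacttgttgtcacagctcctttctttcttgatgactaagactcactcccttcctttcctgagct

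The letters TATAAA stood 32 bases before the start in Il1a and 31 bases before it in Il1b, the place of a TATA box. In Il18 they stood on the other strand at 175 bases, and in the windows of the other 6 genes they were not found, against 12.4% of all 32851 windows that hold them. The core of the myeloid factor PU.1, GAGGAA, was found in Aim2, Casp1, Il1a, Nlrp3 and Pycard, that is in 5 of 9 genes, and in 23.3% of all windows. The NF-kB letters GGGNNTTNC were found in Aim2, Casp4, Il1rn and Nlrp3 and in 13% of all windows. In Casp4 they matched at 4 positions of the same window, of which those at 93 and 92 bases overlapped. The AP-1 letters TGANTCA were found in Il1a, 12 bases before the start, and in Il1rn, and in 6.75% of all windows. The C/EBP letters TTNCNNNAA were found in 7 genes, not in Casp1 or Il18, and in 32.9% of all windows. In Aim2 a C/EBP match covers a PU.1 core, and in Nlrp3 a C/EBP match overlaps an NF-kB match. The interferon-linked letters GAAANNGAA and TTCNNNGAA, held by 7.13% and 7.02% of windows, were in 0 of the 9 genes. Genes with several windows had more chances of a match, and a match describes letters, not binding. The Il18 window ends ahead of the start that the GENCODE annotation gives for the gene.

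The sensors were both higher in aged tissue. Nlrp3, the sensor of potassium loss and membrane damage (ENSMUSG00000032691, GRCm38 chr11:59541568-59566956, plus strand), had a mean normalized count of 39.1, implying 26.8 in young and 51.4 in aged mice. Its log2 fold change was 0.94 (SE 0.32, 95% interval 0.31 to 1.57, adjusted p = 0.0216). Aim2, the sensor of DNA in the cytosol (ENSMUSG00000037860, chr1:173350879-173466040, plus strand), had a mean of 141, implying 81.9 in young and 201 in aged mice. Its log2 fold change was 1.29 (SE 0.21, 95% interval 0.88 to 1.71, adjusted p = 3.69e-08). The interval of Nlrp3 was the wider, and the 2 intervals overlap. Aim2 overlaps Cadm3 on the opposite strand, and Cadm3 had a mean of 514. The libraries were made with a strand-specific kit, but whether strand was used when reads were assigned to genes is not given in the sources used here, and the part of this overlap in the counts was not tested.

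The adaptor and both inflammatory caspases were also higher. Pycard (ENSMUSG00000030793, chr7:127989708-127993867, minus strand) went from an implied 277 to 452, or 0.71 on the log2 scale (SE 0.20, 95% interval 0.32 to 1.09, adjusted p = 0.00287). Casp1 (ENSMUSG00000025888, chr9:5298517-5307265, plus strand) went from an implied 81.7 to 279. At 1.77 on the log2 scale (SE 0.25, 95% interval 1.28 to 2.27, adjusted p = 1.1e-10), or 3.42-fold, Casp1 had the largest rise of the 10 genes, and 1.33% of all tested genes had a larger one. Casp4, the murine caspase-11 that binds bacterial lipopolysaccharide in the cytosol (ENSMUSG00000033538, chr9:5308828-5336783, plus strand), went from an implied 78.8 to 169. Its log2 fold change was 1.10 (SE 0.26, 95% interval 0.60 to 1.60, adjusted p = 0.000237), and this interval overlaps that of Casp1. Both caspase genes lie side by side on chromosome 9, with 1562 bases and 0 protein-coding genes between them. Casp12, the third inflammatory caspase of this cluster, lies beyond Casp4, 38164 bases past the end of Casp1, with a value of 0.35 on the log2 scale (SE 0.18, adjusted p = 0.163). Casp4 was implied at 0.964 of the Casp1 count in young and 0.604 in aged tissue, a difference that was not tested.

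Gsdmd, the pore former (ENSMUSG00000022575, chr15:75862327-75867408, plus strand), had the smallest change of the genes that passed the test. It went from an implied 342 to 471, or 0.46 on the log2 scale (SE 0.15, 95% interval 0.18 to 0.75, adjusted p = 0.0113). This is a fold of 1.38. With a mean of 406 it was the most counted of the 10 and had the smallest standard error. A larger rise was seen in 11.3% of all tested genes.

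**Figure D1:**
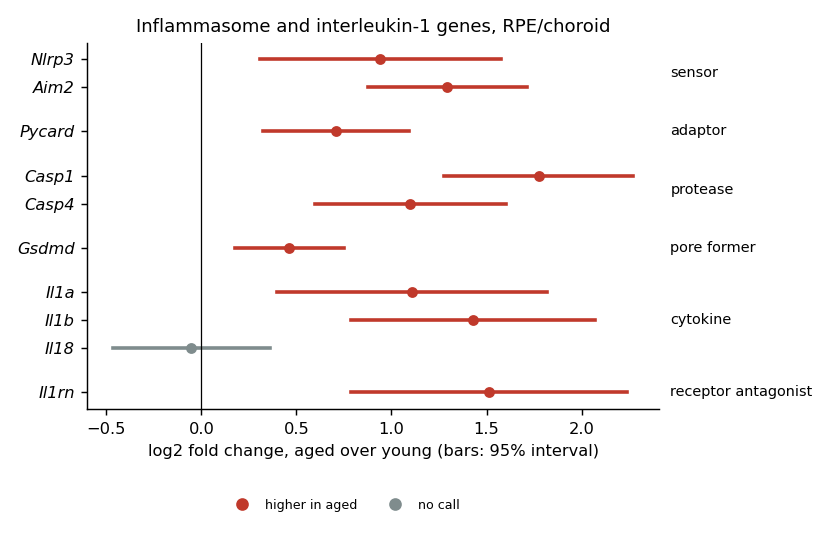
Log2 fold change, aged over young, of the 10 inflammasome and interleukin-1 genes (x axis), by role (rows). Points are the deposited estimates from 3 young and 3 aged libraries and bars their 95% intervals. The intervals of 9 genes lie above 0, from Gsdmd at 0.46 to Casp1 at 1.77, and that of Il18 spans 0.

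Of the cytokines, both forms of IL-1 were higher and Il18 was not called. Il1a (ENSMUSG00000027399, chr2:129299610-129309972, minus strand) went from an implied 32.6 to 70.3, or 1.11 on the log2 scale (SE 0.36, 95% interval 0.40 to 1.82, adjusted p = 0.0147). Il1b (ENSMUSG00000027398, chr2:129364570-129371139, minus strand) went from an implied 31.3 to 84.4, or 1.43 on the log2 scale (SE 0.33, 95% interval 0.79 to 2.07, adjusted p = 0.000189). Both genes lie 54597 bases apart on chromosome 2 with 0 protein-coding genes between them, and their intervals overlap. The study displays Il1b from the same libraries in a heatmap of secreted factors, and its rise is therefore not independent evidence. Without Il1b, 8 of the remaining 9 genes were higher. Il18 (ENSMUSG00000039217, chr9:50554827-50581840, plus strand) was implied at 326 in young and 314 in aged tissue. Its log2 fold change was -0.05 (SE 0.21, 95% interval -0.46 to 0.36, adjusted p = 0.898), so changes beyond 0.725-fold and 1.28-fold lie outside its interval. The 95% intervals of Il1a, Il1b and Casp1 each lie above that of Il18, and no test of the difference between genes was possible without values per library. The implied count of Il1b was 0.0962 of that of Il18 in young and 0.269 of it in aged tissue. These ratios of counts take no account of transcript length. Per kilobase of the longest protein-coding transcript, Il1b was implied at 23.1 and 62.2 and Il18 at 368 and 355 in young and aged tissue.

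Il1rn, which encodes the IL-1 receptor antagonist (ENSMUSG00000026981, chr2:24336853-24351494, plus strand), was higher as well. It went from an implied 29.9 to 85.3, or 1.51 on the log2 scale (SE 0.37, 95% interval 0.79 to 2.24, adjusted p = 0.000553). The antagonist and Il1b thus had overlapping intervals. The implied ratio of Il1rn to Il1b counts was 0.953 in young and 1.01 in aged tissue. These ratios take no account of transcript length. Per kilobase of the longest protein-coding transcript, Il1rn was implied at 12.1 and 34.5 and Il1b at 23.1 and 62.2 in young and aged tissue.

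Across the 10 genes the median log2 fold change was 1.10, beside -0.01 over all genes tested, and the range was -0.05 to 1.77. The fold change was 1 or more on the log2 scale in 6 of the 9 that rose. The least counted genes had the widest intervals, with standard errors of 0.32 to 0.37 at means of 39.1 to 57.9 in Nlrp3, Il1a, Il1b and Il1rn. Among all genes with means of 30 to 100, the median standard error was 0.31 and the smallest change called was 0.59 on the log2 scale. Between 300 and 1000, where Pycard, Gsdmd and Il18 lie, those values were 0.16 and 0.33.

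**Figure D2:**
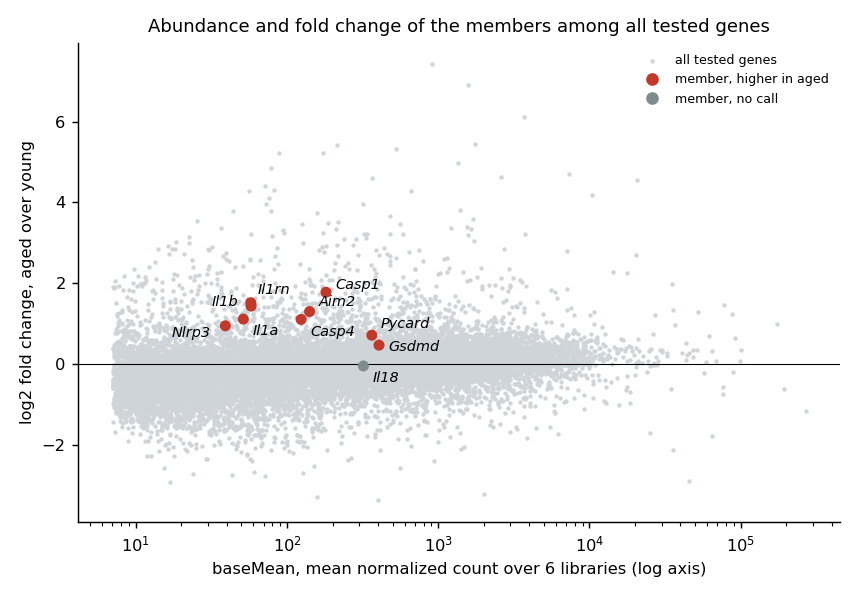
Log2 fold change, aged over young (y axis), against the mean normalized count over 6 libraries (x axis, log scale) for all tested genes in grey and the 10 genes in colour. Il18 lies near 0 at a mean of 320, while Pycard and Gsdmd, at 364 and 406, lie at 0.71 and 0.46.

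Levels were compared between genes per kilobase of the longest protein-coding transcript. With these lengths Il18 was the highest of the 10 genes, with an implied 368 normalized counts per kilobase in young and 355 in aged tissue, followed by Gsdmd with 191 and 263. Casp1 went from 54.6 to 186, passing Pycard, which went from 72.9 to 119, and Casp4 went from 54.9 to 118. The sensors lay lower, with Aim2 at 28.8 in young and 70.8 in aged tissue and Nlrp3, the lowest of the 10, at 6.67 and 12.8. The inducible cytokine genes lay between them, with Il1b at 23.1 and 62.2, Il1a at 16.5 and 35.6, and Il1rn at 12.1 and 34.5. Whether neighbours in this order differ beyond their spread could not be tested, and the order depends on the transcript chosen. With the shortest protein-coding transcript of each gene in place of the longest, Gsdmd came first with a mean of 979 normalized counts per kilobase and Pycard second with 739, ahead of Il18 with 456, and Il1a came last with 26.1. All 10 genes together made up 0.00908% of the summed mean counts of the table.

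**Figure D3:**
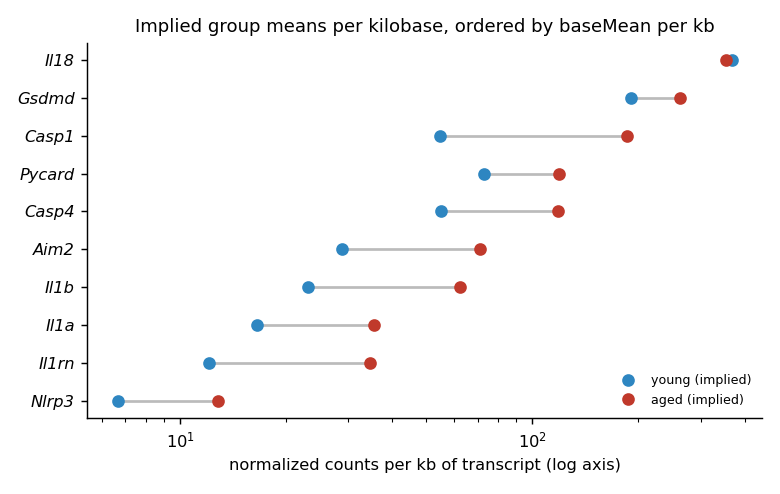
Implied mean normalized counts per kilobase of transcript (x axis, log scale) in young (blue) and aged (red) tissue for each gene (rows), without error bars because no value per library was available. Lengths are those of the longest protein-coding transcript, with which Il18 is highest, at 368 and 355, and Casp1 spans the widest distance, from 54.6 to 186.

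In Nlrp3, Casp1, Gsdmd, Il1b and Il18, the share of 31-base stretches found in no other annotated gene rounded to 1. It was 0.996 in Il1rn, 0.98 in Casp4 and 0.947 in Aim2, which shared 64 of 3516 stretches with Gm7871. In Il1a, 195 of 1944 such stretches were shared with Gm14023 on the opposite strand, which had a mean of 12.9, and in Pycard 455 of 3796 were shared with Gm45205 on the opposite strand. Il18 overlaps Bco2, with a mean of 139, and Tex12, with a mean of 12.4, and Il1b overlaps Il1bos, all on the opposite strand. The part of these overlaps in the counts was likewise not tested.

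The rest of the pathway was taken from a list of 47 genes, of which 40 were tested, 5 lay below the abundance limit and 2 were listed at 0. Of the 40, 19 were higher, 3 were lower and 18 passed in neither direction, with a median log2 fold change of 0.43 beside -0.01 over all genes. The shares stand beside 11.3% higher and 9.92% lower over all genes and are given by role, with all values on the log2 scale as aged over young.

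Of 10 other sensors tested, 6 were higher and 1 was lower. Nlrp12, a regulator of myeloid signalling, rose by 1.65 on the log2 scale (SE 0.24, adjusted p = 5.81e-10), Nlrp1b, which detects pathogen proteases, by 0.85 (SE 0.24, adjusted p = 0.00321), and Nlrc4, the platform for bacterial flagellin, by 0.75 (SE 0.25, adjusted p = 0.0193). Among the Naip receptors that deliver bacterial proteins to Nlrc4, Naip2 rose by 2.16 (SE 0.16, adjusted p = 3.77e-38), Naip5 by 1.60 (SE 0.22, adjusted p = 1.28e-11) and Naip6 by 1.03 (SE 0.24, adjusted p = 0.000297), while Naip1 fell by 1.50 (SE 0.42, adjusted p = 0.0036). These paralogs resemble each other closely, with a share of stretches found in no other gene of 0.469 in Naip5, 0.557 in Naip1, 0.65 in Naip6 and 0.672 in Naip2, so how reads were divided among them is uncertain. Mefv, the pyrin gene, had 1.00 (SE 0.45, adjusted p = 0.0958) and Nlrp1a 0.89 (SE 0.37, adjusted p = 0.0679), which did not pass.

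Of 8 genes that trigger or help assembly, 6 were higher and 1 was lower. The purine receptor P2rx7, which opens to extracellular ATP, rose by 0.77 (SE 0.18, adjusted p = 0.000219), the ATP-releasing channel Panx1 by 0.91 (SE 0.19, adjusted p = 4.33e-05), and Nek7, the kinase that binds Nlrp3, by 0.47 (SE 0.13, adjusted p = 0.00183). The guanylate-binding proteins Gbp2 and Gbp5, which coat bacteria and are induced by interferon, rose by 1.27 (SE 0.17, adjusted p = 2.41e-12) and 0.88 (SE 0.20, adjusted p = 0.000232). Pstpip1, the partner of pyrin, rose by 1.30 (SE 0.17, adjusted p = 2.82e-12). Txnip, a thioredoxin-binding protein, fell by 0.32 (SE 0.12, adjusted p = 0.0366), and this call was lost without the filter on low genes (adjusted p = 0.0514). The deubiquitinase Brcc3 had 0.07 (SE 0.14, adjusted p = 0.766).

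Of 4 other genes of cell death, Ninj1, which ruptures the membrane after gasdermin pores form, rose by 0.98 (SE 0.16, adjusted p = 5.46e-08). Casp8 had 0.26 (SE 0.16, adjusted p = 0.244), and Gsdme, listed as Dfna5, had -0.32 (SE 0.18, adjusted p = 0.204). Neither of the other cytokines tested was called. The alarmin Il33, with a mean of 737, had -0.24 on the log2 scale (SE 0.15, adjusted p = 0.274), and Il36g, listed as Il1f9, had -0.03 (SE 0.42, adjusted p = 0.976).

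Of 6 receptor genes, 3 were higher. Both chains of the IL-18 receptor rose, Il18r1 by 1.74 (SE 0.38, adjusted p = 9.64e-05) and Il18rap by 0.95 (SE 0.31, adjusted p = 0.0155), as did the IL-33 receptor Il1rl1 by 1.50 (SE 0.22, adjusted p = 6.38e-10). The signalling IL-1 receptor Il1r1 had 0.28 (SE 0.17, adjusted p = 0.25) and the shared chain Il1rap -0.26 (SE 0.14, adjusted p = 0.199). Il1r2, the decoy receptor for IL-1, fell by 1.14 (SE 0.43, adjusted p = 0.0405), and Il18bp, the secreted inhibitor of IL-18, rose by 0.59 (SE 0.23, adjusted p = 0.048). Without the filter on low genes neither of these decoy calls held, with adjusted p-values of 0.0568 and 0.0672. Downstream of the receptors, 2 of 7 genes were higher, the inhibitory kinase Irak3 by 0.48 (SE 0.18, adjusted p = 0.0326) and Irak4 by 0.40 (SE 0.15, adjusted p = 0.0445). When fold changes were centred on abundant genes, Il18bp, Irak3 and Irak4 lost their calls (adjusted p = 0.0853, 0.072 and 0.105). Irak4 also lost its call without the filter on low genes (adjusted p = 0.0624). The adaptor Myd88 had 0.36 (SE 0.16, adjusted p = 0.0878).

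**Figure D4:**
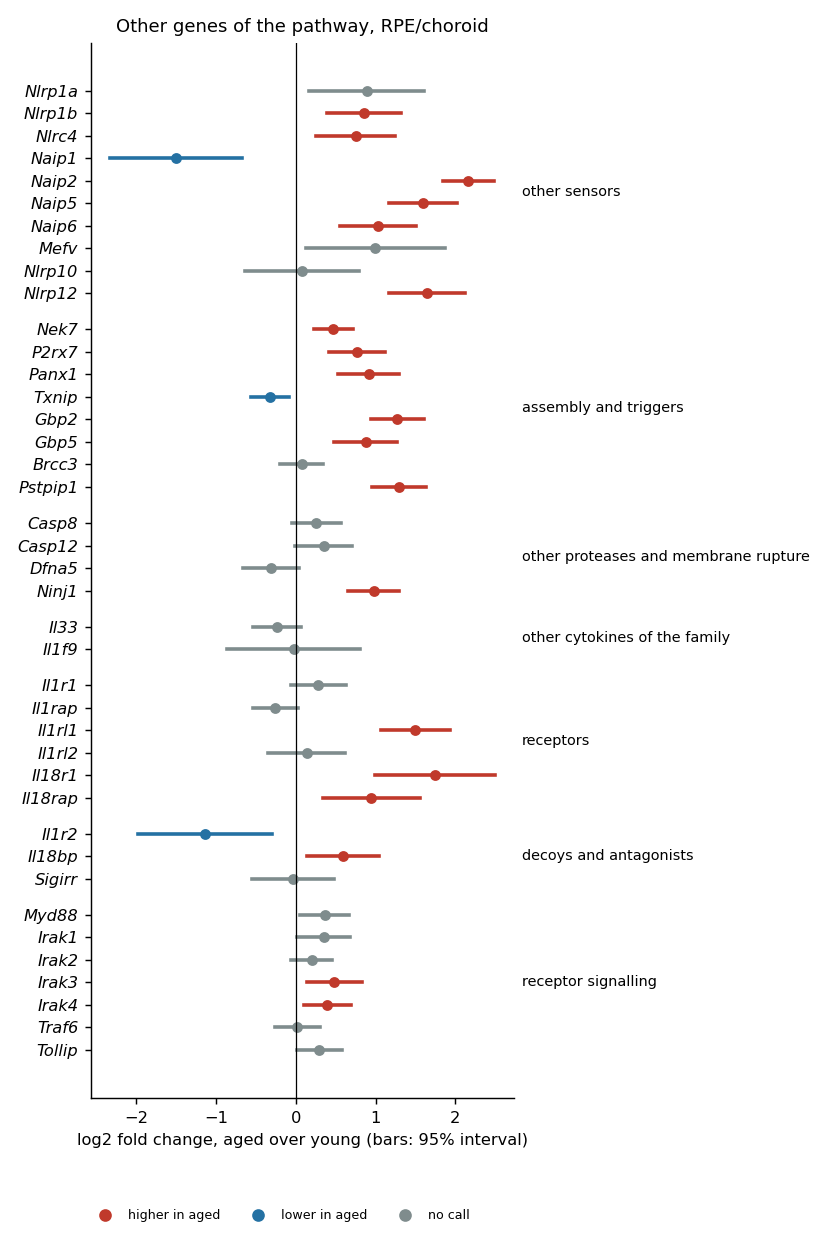
Log2 fold change, aged over young (x axis), of the 40 other pathway genes tested (rows, by role), with 95% intervals as bars. Sensors and assembly genes lie mostly to the right of 0, with Naip1 and Txnip to its left, and the 7 receptor signalling genes lie between 0.02 and 0.48.

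Markers of several leukocyte types changed in the same comparison, not all in the same direction. Of 15 macrophage markers none was at 0, 14 were tested and 12 were higher, with a median log2 fold change of 1.93, and their implied summed count went from 19019 to 114504. Most of the rise in that sum came from Lyz2, a lysozyme of macrophages and neutrophils without a p-value, and without it the sum went from 14745 to 41637, which is 2.82-fold and not 6.02-fold. Adgre1, the macrophage surface marker listed as Emr1, rose by 2.12 (SE 0.16, adjusted p = 5.89e-38). Csf1r, the receptor for macrophage growth factor, rose by 0.37 (adjusted p = 0.0276), while Cx3cr1 had 0.44 (adjusted p = 0.0816) and Mrc1 0.15 (adjusted p = 0.512), which did not pass. Outside the list, 6 genes associated with resident macrophages, chosen after their values were seen, were lower in aged tissue, among them Cd163, which fell by 2.34 (SE 0.24, adjusted p = 4.7e-20), Lyve1 by 2.01 (SE 0.27, adjusted p = 2.15e-12) and F13a1 by 1.64 (SE 0.14, adjusted p = 3.25e-31), and the others were Mgl2, Folr2 and Pf4. Of 9 T and NK cell markers tested, 6 were higher, with a median of 1.97 and a sum that went from 148 to 640, or from 71.2 to 233 without Cd4. Of 9 mast cell markers 8 were higher, with a median of 2.42. Kit, which was not called, set most of their young sum, which went from 1279 to 2944 with Kit and from 428 to 2268 without it.

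Of 11 neutrophil markers, 7 were tested and 3 were higher, with an implied sum of 224 in young and 633 in aged tissue. Those called were S100a8, an abundant neutrophil protein that rose by 2.34 (SE 0.27, adjusted p = 3.82e-16), its partner S100a9, which rose by 1.47 (adjusted p = 2.66e-05), and the growth factor receptor Csf3r, which rose by 1.73 (adjusted p = 8.53e-12). Cxcr2, Camp, Ltf and Retnlg were tested and not called, with values of 0.56 to 0.83. The surface marker Ly6g had a mean of 0.296, and of the granule genes Mpo, Elane, Ngp, Camp and Ltf, the means were 0, 0.348, 2.92, 33.9 and 41.1. The B cell markers Cd79a at -0.39 (adjusted p = 0.544), Cd79b at 0.47 (adjusted p = 0.181) and Ms4a1 at 0.28 (adjusted p = 0.595) were not called. Other genes of the B lineage, chosen after their values were seen, were higher, with Igkc, an immunoglobulin light chain, at 3.49 (SE 0.32, adjusted p = 3.51e-26), the heavy chain Ighm at 2.04 (SE 0.24, adjusted p = 1.08e-15), the joining chain Igj at 2.35 (SE 0.26, adjusted p = 3.06e-18) and Cd22 at 3.10 (SE 0.21, adjusted p = 7.31e-49). Of 8 RPE markers tested, 2 were higher, with a median of 0.28 and sums of 283235 and 348055. Of 7 endothelial markers 1 was higher and 1 lower, and of 5 fibroblast markers 1 was higher and 2 were lower, with a median of 0.21. The collagen genes Col1a1 and Col1a2 were those that fell, and they took the fibroblast sum from 230551 to 106444, whereas the sum of Dcn, Lum and Pdgfra went from 49322 to 66853. Rod photoreceptor markers were called in 0 of 6 (0 at an unadjusted p under 0.05, SE 0.39 to 0.44). The summed count of the 10 inflammasome and interleukin-1 genes went from 1307 to 2178 in the same libraries. The part of leukocyte numbers in the rise of these genes was not tested.

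**Figure D5:**
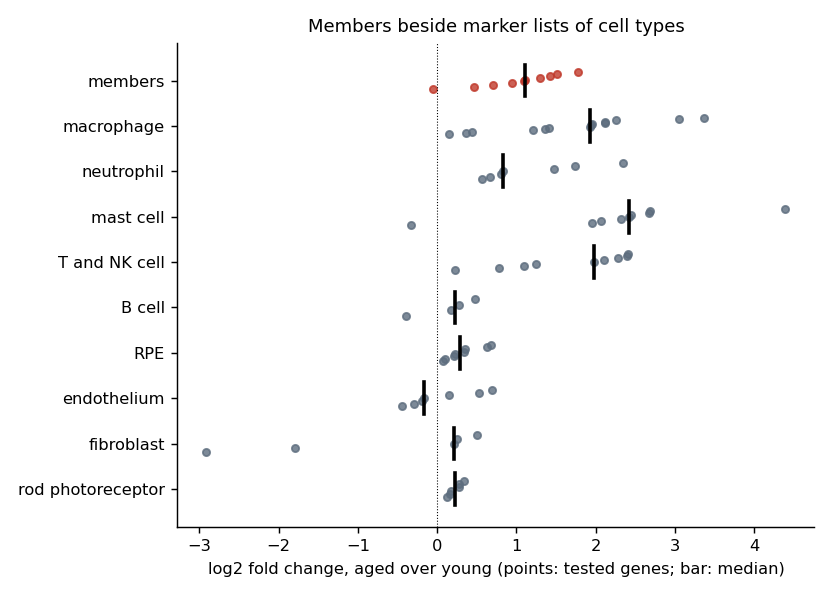
Log2 fold change, aged over young (x axis), of the tested genes of the inflammasome and interleukin-1 set (red) and of each cell type's marker list (grey), with the list's median as a bar. The set's median of 1.10 lies below those of macrophage (1.93), T and NK cell (1.97) and mast cell markers (2.42). It lies above those of neutrophil (0.83), RPE (0.28), B cell (0.23) and rod markers (0.22).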

How the data were processed

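RPE/choroid RNA was sequenced from 3 young and 3 aged C57BL/6J mice, grouped by their labels. Per the methods and labels, the authors used BBDuk for trimming and STAR for alignment to Ensembl release 82 transcripts of GRCm38, estimated abundances with Sailfish 0.9.0, scaled them by total count and compared groups with DESeq2. One table of that comparison was used, with 0 columns that name a sample, so depth per library is unknown here and no test per gene was rerun. The deposited baseMean is a normalized signal, the mean over 6 libraries. The authors' fold changes and standard errors are on the log2 scale, as young over aged, and the sign was reversed. The deposited Wald score is their quotient, and the authors took the deposited p-value and adjusted p-value from DESeq2. Recomputed p and adjusted p differed from the deposited ones by at most 0.449% and 0.572%. Of 33924 genes, 18636 had an adjusted p and are called tested.

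Python 3.11.15 with numpy 2.4.6, pandas 2.3.3, scipy 1.17.1 and matplotlib 3.10.9 was used. Intervals are 95% Wald intervals. Implied group means solve the mean and fold change for groups of equal size. Positions, transcript lengths and shared stretches of 31 bases come from GENCODE M21, and promoter windows of 250 bases from RefSeq on GRCm38.p6. The scripts were tested on simulated data. Named were all 10 genes, the pathway genes that differ with others of each role, and Rpe65, Adgre1 and S100a8 among the markers. Other markers named, the marker sums without the most abundant members, and the levels per kilobase of the shortest transcript were chosen after their values were seen. The genes and lists were chosen with earlier results of these data known. Alternatives were centring fold changes on tested genes with a baseMean of at least 100, no filter on low genes, adjusted p under 0.01, and a log2 fold change of at least 1.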

Additional observations from a re-analysis of the deposited data

How the results depend on the processing

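The number of the 10 inflammasome and interleukin-1 genes called was 9 after centring and 9 without the filter, 6 at an adjusted p under 0.01 (without Nlrp3, Gsdmd and Il1a) and 6 with a log2 fold change of at least 1 (without Nlrp3, Pycard and Gsdmd). It was 8 without Il1b, a count chosen after seeing the data. Of the 40 other pathway genes tested, 22 were called, 19 higher and 3 lower. The count was 19 after centring (16 higher, 3 lower) and 18 without the filter (17 higher, 1 lower). It was 15 at an adjusted p under 0.01 (14 higher, 1 lower) and 10 with a log2 fold change of at least 1 (8 higher, 2 lower). Centring subtracted 0.065, the median of abundant genes on the log2 scale, and Traf6 then went from 0.02 to -0.0448, neither of them called. Over all genes, 3949 were called, 2100 higher and 1849 lower, and after centring 3939, 1650 higher and 2289 lower. Over all genes the count was 3581 without the filter (1931 higher, 1650 lower) and 2520 at an adjusted p under 0.01 (1447 higher, 1073 lower). With a log2 fold change of at least 1 it was 1542, with fewer higher (681) than lower (861). No paired analysis was possible because only one comparison, with no level of a single library, was at hand, although the labels number the mice of both groups alike, and leaving out each replicate could not be run for the same reason. Fold changes and standard errors of low genes rest on the authors' model, and depth per library is unknown.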
